A study of Arabidopsis thaliana with 40 samples.

Results

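In *Arabidopsis thaliana*, 1285 peaks of H2Aub1 increase were deposited, places at which, after scaling between samples, rosette leaves of the *ubp12/13* double mutant carried more monoubiquitinated histone H2A (H2Aub1) than wild-type (wt) leaves. Of these, 360 were narrow peaks on the chromosome arms, chosen as all peaks of less than 1000 bp whose start lay outside 1 fixed pericentromeric interval per chromosome. The other peaks were 626 arm peaks of 1000 bp or more, called wide here, and 299 pericentromeric peaks of any width. The narrow arm peaks were set against the genes they cover, and the transcripts of these genes were read in whole seedlings of 4 genotypes, *ubp12/13*, *ubp12*, *ubp13* and wt, with 3 libraries each.

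All plants were in the Col-0 background and grew in long days. The alleles were the T-DNA insertions *ubp12-1* and *ubp13-3*, of which *ubp13-3* is described as weak, and the double mutant *ubp12-1 ubp13-3* is called *ubp12/13*. Because it is sterile, the double mutant was kept heterozygous for *ubp13-3*, and homozygous plants were found by genotyping. Seedlings for RNA had grown 15 days on medium and were harvested 6 to 8 h after the lights came on. Leaves for ChIP came from plants moved from medium to soil, were harvested shortly before darkness, and were older than the seedlings, with total ages that differ by a few days between the labels and the study's methods. Only *ubp12/13* and wt leaves were used. Peaks and transcripts therefore came from plants of different age, organ and time of day, and no peak was measured in a single mutant.

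Ubiquitin is attached to histone H2A by Polycomb repressive complex 1 (PRC1), whose recruitment in plants involves B3-domain proteins that recognise RY elements. The related complex PRC2 places trimethylation on lysine 27 of histone H3, and REF6 is a demethylase that takes this mark off again at a short sequence it recognises with zinc fingers. UBP12 and UBP13 are closely related deubiquitinases that remove ubiquitin from H2A and from other proteins. The antibody used for the peaks also reacts with the ubiquitinated form of the variant H2A.Z.

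The peak centres are shown for the 6 genes under narrow peaks with the largest rise in *ubp12/13* and for the 2 with the largest fall. The fall pair was added after the values were seen. Each stretch is the middle 300 bases of the peak, without bases that RefSeq annotates as UTR in a protein-coding gene, from the plus strand of TAIR10.1 (RefSeq), 5′ to 3′. Capitals mark any of the 5 motifs searched, on either strand.
CSLA01: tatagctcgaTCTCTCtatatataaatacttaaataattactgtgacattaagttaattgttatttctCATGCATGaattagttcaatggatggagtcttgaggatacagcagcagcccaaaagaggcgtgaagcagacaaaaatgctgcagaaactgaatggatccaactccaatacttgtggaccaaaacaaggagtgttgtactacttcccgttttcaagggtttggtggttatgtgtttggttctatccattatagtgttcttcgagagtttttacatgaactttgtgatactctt
AT1G21525: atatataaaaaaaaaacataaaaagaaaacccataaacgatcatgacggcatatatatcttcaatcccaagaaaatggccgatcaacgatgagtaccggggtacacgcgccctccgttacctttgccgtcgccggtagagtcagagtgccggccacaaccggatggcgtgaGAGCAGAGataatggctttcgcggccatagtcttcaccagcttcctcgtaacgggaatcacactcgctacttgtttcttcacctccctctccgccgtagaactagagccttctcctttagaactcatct
AT1G21520: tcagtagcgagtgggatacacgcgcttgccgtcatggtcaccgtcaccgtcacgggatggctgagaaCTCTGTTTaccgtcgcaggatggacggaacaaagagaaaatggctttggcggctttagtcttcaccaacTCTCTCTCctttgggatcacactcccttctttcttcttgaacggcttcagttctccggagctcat
AT1G12030: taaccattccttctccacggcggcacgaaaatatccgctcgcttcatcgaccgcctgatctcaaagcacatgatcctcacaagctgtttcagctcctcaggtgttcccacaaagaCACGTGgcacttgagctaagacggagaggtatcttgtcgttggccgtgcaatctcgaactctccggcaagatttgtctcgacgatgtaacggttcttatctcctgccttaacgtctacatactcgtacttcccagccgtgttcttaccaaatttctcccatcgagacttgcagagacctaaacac
AT1G21326: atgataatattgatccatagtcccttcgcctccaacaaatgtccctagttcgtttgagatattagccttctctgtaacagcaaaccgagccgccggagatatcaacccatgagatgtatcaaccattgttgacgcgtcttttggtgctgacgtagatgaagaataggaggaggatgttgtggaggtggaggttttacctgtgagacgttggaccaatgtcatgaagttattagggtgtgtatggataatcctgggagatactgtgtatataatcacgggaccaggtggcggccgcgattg
BGLU11: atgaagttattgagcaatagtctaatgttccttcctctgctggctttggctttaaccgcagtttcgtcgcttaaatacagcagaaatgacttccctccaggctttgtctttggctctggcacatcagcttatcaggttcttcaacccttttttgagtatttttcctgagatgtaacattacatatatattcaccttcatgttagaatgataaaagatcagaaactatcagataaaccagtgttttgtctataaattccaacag
AT3G16670: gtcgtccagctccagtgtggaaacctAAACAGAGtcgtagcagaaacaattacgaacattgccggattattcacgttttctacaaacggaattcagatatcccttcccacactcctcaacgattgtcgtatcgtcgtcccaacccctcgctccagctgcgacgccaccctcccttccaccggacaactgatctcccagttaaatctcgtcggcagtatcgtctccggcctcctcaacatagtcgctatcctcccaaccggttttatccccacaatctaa
DCF: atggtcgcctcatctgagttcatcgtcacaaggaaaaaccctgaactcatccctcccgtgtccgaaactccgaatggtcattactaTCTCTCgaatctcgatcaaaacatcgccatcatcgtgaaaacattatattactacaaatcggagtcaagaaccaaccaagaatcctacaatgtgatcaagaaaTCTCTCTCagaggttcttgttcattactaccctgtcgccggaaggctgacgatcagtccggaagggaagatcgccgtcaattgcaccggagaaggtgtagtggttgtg
*CSLA01* lies at chr4:9345150-9349258 on the plus strand, its peak spans chr4:9345085-9345781 (697 bp) and the stretch at chr4:9345283-9345582 holds 218 coding bases. Its capitals are an overlapping pair of RY elements and 1 GA repeat. *AT1G21520* and *AT1G21525* are neighbours on the minus strand of chromosome 1, at chr1:7534019-7534927 and chr1:7537075-7537650, under separate peaks of 824 and 876 bp, chr1:7534198-7535021 and chr1:7536992-7537867. *AT1G21520* encodes an uncharacterised protein and *AT1G21525* is annotated as a pseudogene. Each stretch (chr1:7534533-7534733 and chr1:7537280-7537579) holds 1 REF6 motif, and that of *AT1G21520* also an overlapping pair of GA repeats. The stretch of *AT1G12030*, at chr1:4064971-4065270 in a peak of 884 bp, holds 1 G-box, and 292 of its bases are coding. The stretches of *AT1G21326* (chr1:7469266-7469565, wholly coding) and *BGLU11* (chr1:630569-630831, 135 coding bases) hold none of the motifs. Of the genes that fell, *AT3G16670* (chr3:5681833-5682111, peak of 630 bp) has 1 REF6 motif and *DCF* (chr3:18046527-18046823, peak of 562 bp) has 3 GA repeats, of which 2 overlap, and both stretches are wholly coding.

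Most narrow arm peaks had their centre inside a gene, often close behind its start. Of the 360 peaks, 322 (89.4%) overlapped a gene body, 313 covered exactly 1 gene, 9 covered 2 or more and 38 covered none. The centre lay in a gene body in 86.9% of narrow peaks (95% Wilson interval 83.1 to 90.0%) and in 89.6% of wide arm peaks (87.0 to 91.8%), so that these intervals overlap. Centres in a protein-coding gene and within 500 bp of its start made up 50.6% of narrow peaks (45.4 to 55.7%) and 23.3% of wide ones (20.2 to 26.8%). In protein-coding genes the centre was a median of 430.5 bp from the start in narrow peaks (n = 300) and 687 bp in wide ones (n = 544). This distance is partly set by width, because a wider peak that begins at the same place has its centre further in. These intervals, and those that follow, cover counting error only, and no test was run on the difference between narrow and wide peaks.

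**Figure D1:**
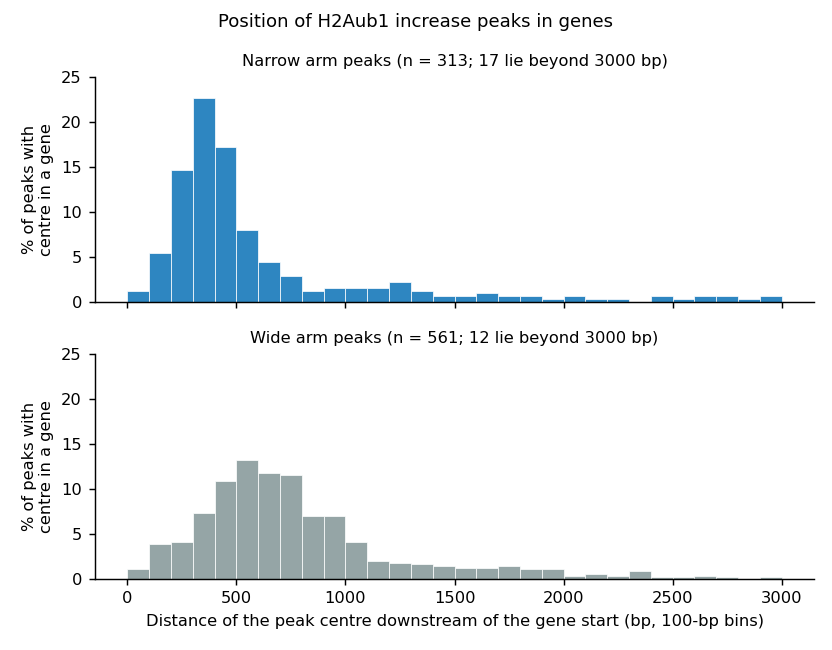
Distance of the peak centre from the start of the gene that holds it, in 100-bp bins (horizontal axis, bp), as a share of the peaks whose centre lies in a gene (vertical axis, %), for 313 narrow arm peaks above and 561 wide arm peaks below. The fullest bin of the narrow peaks runs from 300 to 400 bp and holds 71 of them, and that of the wide peaks runs from 500 to 600 bp and holds 74.

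The centre of a narrow peak lay in a coding exon in 260 cases (72.2%, 67.4 to 76.6%) and in an intron in 33 (9.17%, 6.60 to 12.6%). In wide peaks these shares were 63.4% (59.6 to 67.1%) and 18.7% (15.8 to 21.9%). A further 7 narrow centres lay in an untranslated exon and 13 in a gene that is not protein-coding. Another 29 lay in the 2 kb upstream of a gene and 18 elsewhere. Taken over their whole width, 11 narrow peaks touched neither a gene body nor the 2 kb before it. Narrow peaks lay wholly within gene bodies in 39.2% of cases, against 25.6% of wide peaks, and held the start of a protein-coding gene in 41.4%, against 62.6%. The first 1 kb of a protein-coding gene, which the study took as the sign of a target gene, was touched by 265 narrow peaks (73.6%, 68.8 to 77.9%) and by 86.4% of wide ones (83.5 to 88.9%), again a share that rises with width.

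The median narrow peak was 818.5 bp wide, the range was 400 to 999 bp, and all of them together covered 286260 bp. The narrowest peaks, of 400, 418 and 428 bp, lay over *AT1G16310* (a cation efflux gene), no gene, and *AT4G20610*. The last peaks below the limit had 998 bp (at *AT1G79170* and at *CYP72C1*) and 999 bp (at *TTL2* and *AT3G13175*), and the first above it had 1001, 1006, 1007 and 1009 bp, so that the limit cuts through a continuous range. Chromosomes 1 to 5 held 87, 67, 74, 70 and 62 narrow peaks, which is 3.36, 4.27, 3.90, 4.80 and 2.76 per Mb of arm. Most stood alone: the nearest other increase peak was a median of 28087 bp away, and was within 2 kb for 12.5% of them.

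The middle 300 bases of narrow peaks had more GC, RY elements and G-boxes than windows of the same length in the first 1 kb of genes. The median GC content was 45.3% in narrow and 43.0% in wide peaks, against 39.3% of the windows in the first 1 kb and 36.3% over all 300-base windows of the arms. The RY element (C A T G C A, the site of B3-domain proteins) was found in 69 of 360 narrow peaks (19.2%, 15.4 to 23.5%) and in 19.6% of wide peaks (16.7 to 22.9%), against 8.62% of 300-base windows in the first 1 kb of 25313 protein-coding arm genes, 11.7% of 325466 consecutive arm windows and 9.72% of 27443 promoter windows (250 bases before to 50 after the gene start). The G-box (C A C G T G, a palindrome read once) was in 8.89% of narrow peaks (6.37 to 12.3%) and 10.5% of wide peaks (8.37 to 13.2%), against 3.51% of the windows in the first 1 kb, 3.48% of arm windows and 7.68% of promoters, a share that lies inside the interval of the narrow peaks.

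The other motifs stood differently to the first 1 kb of genes and to the arms as a whole. The REF6 motif, searched as C T C T G followed by C T C, C T T, T T C or T T T, was in 15.3% of narrow (11.9 to 19.4%) and 13.4% of wide peaks, and in 13.9% of the windows in the first 1 kb of genes, 9.02% of arm windows and 7.87% of promoters, so that the narrow interval holds the share of the gene windows and lies above those of arms and promoters. The GA repeat (G A G A G A, which overlaps itself in longer runs) was in 34.4% of narrow peaks (29.7 to 39.5%), 28.3% of wide peaks, 33.0% of the windows in the first 1 kb, 25.4% of arm windows and 29.2% of promoters. The telobox (A A A C C C T A) was in 4.17% of narrow peaks (2.54 to 6.76%), 4.95% of wide peaks, 7.75% of the windows in the first 1 kb, 3.62% of arm windows and 6.22% of promoters, and was thus rarer in narrow peaks than in the first 1 kb of genes. Both strands were searched for every motif. A match is a run of letters, and binding was not examined here, since the REF6 ChIP data of the series were not used.

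**Figure D2:**
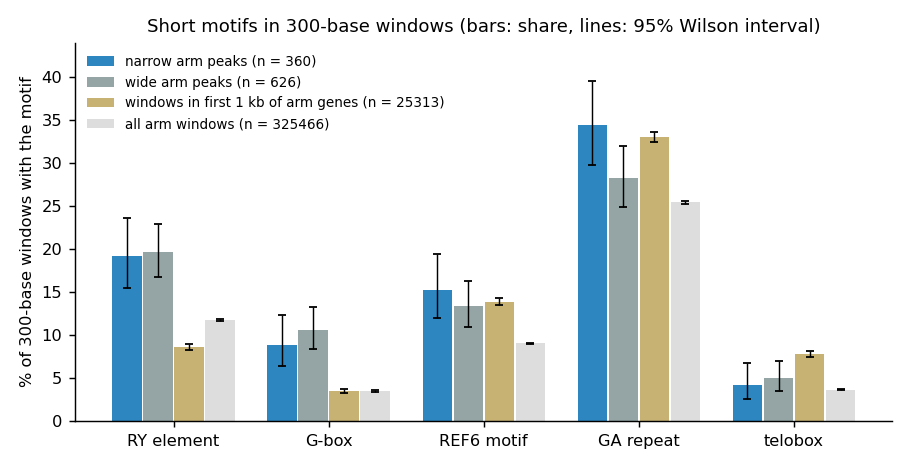
Share of 300-base windows that hold each motif on either strand (vertical axis, %), for narrow arm peaks, wide arm peaks, windows in the first 1 kb of arm genes and all arm windows, with 95% Wilson intervals as lines. RY elements and G-boxes stand at 19.2% and 8.89% in narrow peaks, above the 8.62% and 3.51% of windows in the first 1 kb, while the interval of the REF6 motif in narrow peaks (11.9 to 19.4%) holds the 13.9% of those windows.

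The narrow peaks covered 331 genes with counts: 314 protein-coding genes, 13 pseudogenes of which 9 are transcribed, 2 long noncoding RNAs, 1 miRNA gene and 1 other noncoding RNA gene. Of these, 283 were touched in their first 1 kb and 9 also lay under another increase peak. By annotated product, 20 belonged to the cell wall (6.04% of covered genes, against 6.52% of genes under wide peaks and 2.50% of all arm genes). Disease resistance or other defence genes numbered 11 (3.32%, against 1.98% under wide peaks and 1.24% of arm genes). Kinases or kinase-related genes numbered 18 (5.44%, against 4.69% of arm genes) and F-box, RING or U-box genes 15 (4.53%, against 3.81%). Transporters numbered 12 (3.6%, against 2.71% of arm genes) and cytochromes P450 6 (1.81%, against 0.83%). Transcription factors were present from many families. By product pattern there were 7 zinc finger genes and 6 of the AP2/ERF or related B3 type. The MADS, MYB, NAC, bHLH and homeobox or homeodomain-like patterns matched 2 each. A pattern can miss members, and *ERF14* and *CEJ1* were counted with the hormone genes instead. No ribosomal protein gene and no photosystem or antenna gene lay under a narrow peak. These make up 1.17% and 0.26% of arm genes, and their absence was not tested. Of 66 genes in 9 lists (PRC1 and PRC2 subunits, their recruiters and partners, H3K27 demethylases, UBP12 and UBP13, and Polycomb targets that control flowering, meristems and seeds) none was covered by a narrow peak, whereas wide arm peaks covered 1 meristem gene and 3 seed genes. The lists are short, and this difference was not tested.

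Most covered genes gave few or no reads in seedlings. Of the 331, 78 had 0 counts in all 12 libraries and another 78 had at most 3 counts in each. In wt, 191 (57.7%) had at most 3 counts in every library, compared with 52.3% of genes under wide arm peaks and 33.9% of all arm genes. A mean above 1 CPM (counts scaled to the size of each library) in wt was reached by 29.3% of genes under narrow peaks, 35.0% of genes under wide peaks and 59.1% of arm genes, and a mean above 10 CPM by 8.76%, 14.0% and 36.8%. The number of covered genes above 1 CPM was close in all genotypes, with 101, 101 and 102 in the *ubp12/13* libraries, 97, 101 and 101 in *ubp12*, 100, 97 and 98 in the libraries labelled *ubp13*, and 99, 96 and 95 in wt. Reads were counted over whole seedlings, so that fewer cells of a type and less RNA per cell cannot be told apart.

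**Figure D3:**
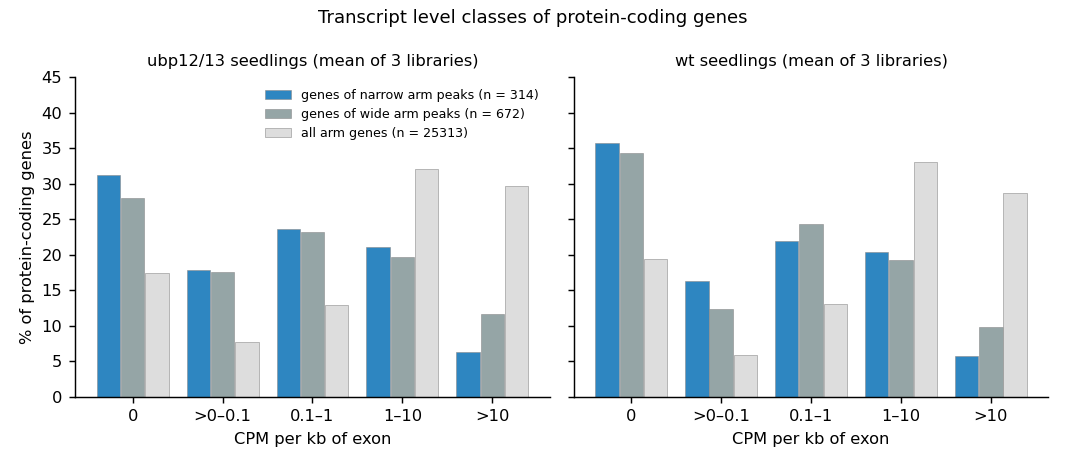
Share of protein-coding genes (vertical axis, %) in 5 classes of mean CPM per kb of exon (horizontal axis), in *ubp12/13* seedlings on the left and wt seedlings on the right, for genes under narrow arm peaks, under wide arm peaks and all arm genes. In *ubp12/13*, 98 of the 314 genes under narrow peaks were at 0 and 20 above 10 CPM per kb, and in wt 112 were at 0 and 18 above 10. At 0 were also 112 in *ubp12* and 102 in the libraries labelled *ubp13*, not drawn. Of all protein-coding arm genes, 17.5% were at 0 in *ubp12/13* and 19.4% in wt. The *ubp12/13* libraries held more reads than those of wt, and the part of depth in these counts was not tested.

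Per kb of exon, the highest levels under narrow peaks in wt were those of *MLP43*, a major latex protein-like gene (110 CPM per kb), the defensin-like gene *AT3G05730* (77.6), *MAM1*, an enzyme of glucosinolate synthesis (53.3), *AT3G16670*, an extensin-like gene (37.4), and *GPAT3*, a glycerol-3-phosphate acyltransferase (26.9). The transcript of *MAM1* averaged 104 CPM in *ubp12/13* and 109 CPM in wt (log2FC −0.09).

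The targeted genes and the libraries were checked first. *UBP12* had 33.9, 27.1 and 36.3 CPM in *ubp12/13*, 26.1, 23.3 and 27.4 in *ubp12*, 94.6, 92.1 and 88.5 in the libraries labelled *ubp13*, and 99.8, 101 and 95.8 CPM in wt, so that both genotypes with *ubp12-1* lay below wt without overlap (log2FC −1.62 and −1.95, adjusted p = 6.47e-05 and 2.18e-05, edgeR quasi-likelihood test with Benjamini-Hochberg adjustment, as for every adjusted p of a gene below). *UBP13* had 77.9, 78.4 and 80.9 CPM in *ubp12/13*, 59.0, 64.1 and 62.1 in *ubp12*, 149, 171 and 153 in the libraries labelled *ubp13*, and 62.6, 63.3 and 63.6 CPM in wt. Reads of *UBP13* were thus highest in the libraries labelled *ubp13* (log2FC 1.32, adjusted p = 0.000593), against what a loss of the transcript would give, and counts over the whole gene do not show where an insertion breaks it. Totals on nuclear genes ran from 12145023 to 15225396 in *ubp12/13*, 6822401 to 9109250 in *ubp12*, 10190084 to 12768034 in those labelled *ubp13* and 6545534 to 9494373 in wt, so that low transcripts were measured more finely in *ubp12/13*. Wt replicate 3 had 6.15% of its reads on organelle genes, and the other libraries 0.268 to 1.52%. Of 10 genes known as root markers, chosen after the files were seen, 7 had at most 3 counts in all 12 libraries and *EXPA18* and *RSL4* had 0, so that these markers were close to absent from seedlings labelled as whole. The sum of the 10 was 1.83 to 2.50 CPM in *ubp12/13*, 0.445 to 0.698 in *ubp12*, 0.683 to 1.77 in those labelled *ubp13* and 0.125 to 0.545 CPM in wt, most of it in *ubp12/13* from *CASP1* (1.48 to 1.66 CPM, against 0 to 0.156 in wt). A pair of green leaf markers, *RBCS1A* and *CAB1*, summed to 25190 to 30550 CPM in *ubp12/13*, 37900 to 48290 in *ubp12*, 41120 to 47050 in those labelled *ubp13* and 33640 to 40200 CPM in wt, lowest in the double mutant without overlap. The part of these differences in the results below was not tested.

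In *ubp12/13*, genes under narrow peaks moved in both directions in equal number. The test was run on 107 of the 331 covered genes, namely those above 1 CPM in 2 or more of the 6 *ubp12/13* and wt libraries. Of the other 224, left out by this filter, 78 had no read, 78 at most 3 counts per library and 68 more than 3 in some library, and none exceeded 1.72 CPM. Of the 107, 15 (14.0%) rose and 15 (14.0%) fell past a 2-fold change at an adjusted p under 0.05, while 5.94% of all 17916 tested genes rose and 4.02% fell. Under wide arm peaks, 48 of 279 tested genes (17.2%) rose and 29 (10.4%) fell. The median log2FC of the 107 was 0.07 (quartiles −0.43 and 0.67), against −0.0018 over all tested genes. Leaving out 1 library at a time moved this median between −0.02 and 0.058, lowest without *ubp12/13* replicate 2, so that it had no stable sign. Without a fold minimum, 22 rose and 21 fell, beside 16.0% and 15.1% of all genes. Because 11 of the 107 passed the filter only through *ubp12/13* libraries and 4 only through wt, these counts describe the tested genes and not every gene under a narrow peak. Among the rises, *CSLA01*, *AT1G21525*, *AT1G12030*, *AT1G21326*, *ROXY1* and *AT5G66940* had every wt library below 1 CPM. They were thus tested only through the group in which they were high. Among the falls, *AT3G16670*, *AT5G38710* and *XTH17* had every *ubp12/13* library below 1 CPM.

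Under peaks of less than 800 bp, 3 of 40 tested genes (7.5%) rose and 6 (15.0%) fell, beside 5.94% and 4.02% of all tested genes. The share of rises was lower than under all narrow peaks and near that of all tested genes, and rests on 3 genes. The share of falls was close to that under all narrow peaks. Without the filter, 134 of the 224 genes were tested as well, of which *DL1D*, a dynamin-like gene, rose (log2FC 3.26, adjusted p = 0.0277) and the F-box gene *AT5G10340* fell (log2FC −1.97, adjusted p = 0.0289), both below the filter and named after their values were seen. With library totals in place of TMM factors, the median of all genes shifted by 0.15 on the log2 scale, 19 covered genes rose and 7 fell, and 71.7% of all calls were rises instead of 59.6%. Of the 15 rises, 11 kept the call in all 14 other fits, and of the 15 falls 6 did.

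Among the genes that rose were 2 of 6 tested cell wall genes, sugar and amino acid genes, and 3 genes of unknown or loosely known function. For this and each family count below, 5.94% of all tested genes rose and 4.02% fell, and no count was tested against these shares. *CSLA01*, a member of the cellulose synthase-like A family of mannan synthases, had 7.19, 9.35 and 8.25 CPM in *ubp12/13*, 0.334, 0 and 0.151 in *ubp12*, and 0 in all 3 libraries labelled *ubp13* and all 3 of wt. It was thus close to absent outside the double mutant, and at least 21.2-fold higher in *ubp12/13* than the 3 counts per library that a reading of 0 allows in wt (adjusted p = 9.22e-05). *CSLA01* passed the filter only through its *ubp12/13* libraries.

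*AT1G21520* had 32.2, 47.3 and 31.2 CPM in *ubp12/13*, 2.23, 1.75 and 1.51 in *ubp12*, 1.20, 1.09 and 1.53 in those labelled *ubp13*, and 3.82, 3.37 and 2.02 CPM in wt. Its *ubp12/13* libraries stood far above all others (log2FC 3.54 ± 0.24 SE, adjusted p = 5.84e-05). The neighbouring pseudogene *AT1G21525* had 1.44, 6.21 and 7.19 CPM in *ubp12/13*, 0, 0.465 and 0 in *ubp12*, 0.0854, 0 and 0 in those labelled *ubp13*, and 0.545, 0 and 0 CPM in wt (log2FC 4.49 ± 0.96, adjusted p = 0.00828). Wt replicate 1 alone sets the wt level of *AT1G21525*, and the fitted log2FC was 8.85 without it. The gene bodies of this pair share 0 words of 50 bases, the length of a read.

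*BGLU11*, a beta-glucosidase, had 91.9, 87.7 and 80.5 CPM in *ubp12/13*, 13.9, 10.9 and 9.50 in *ubp12*, 12.5, 6.90 and 6.42 in those labelled *ubp13*, and 26.2, 16.6 and 15.9 CPM in wt. The double mutant was above wt and both single mutants were below it, without overlap of any *ubp12/13* library with another (log2FC 2.13 ± 0.18, adjusted p = 0.000101). *AT1G12030*, a gene of the DUF506 family, had 2.27, 6.57 and 4.24 CPM in *ubp12/13* and 0.763, 0.624 and 0.623 CPM in wt (log2FC 2.68, adjusted p = 0.00389). *AT1G21326*, which encodes a VQ motif protein, had 2.27, 1.01 and 1.74 CPM in *ubp12/13* and 0.218, 0.624 and 0.156 CPM in wt (log2FC 2.23, adjusted p = 0.016, and 3.02 without wt replicate 2), and its call was lost without *ubp12/13* replicate 1 (adjusted p = 0.0504) and without wt replicate 1 or 3 (0.0676 and 0.0563).

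A pair of sucrose-cleaving enzymes was higher in the double mutant. *SUS3*, a sucrose synthase, had 5.90, 8.46 and 8.02 CPM in *ubp12/13*, 4.57, 1.98 and 3.17 in *ubp12*, 2.22, 2.69 and 2.75 in those labelled *ubp13*, and 2.29, 1.87 and 2.18 CPM in wt (log2FC 1.81 ± 0.21, adjusted p = 0.000482). *A/N-InvB*, a neutral invertase, had 11.2, 12.5 and 10.9 CPM in *ubp12/13*, 3.45, 3.72 and 3.02 in *ubp12*, 2.99, 4.54 and 3.97 in those labelled *ubp13*, and 3.93, 2.996 and 4.67 CPM in wt (log2FC 1.58 ± 0.17, adjusted p = 0.000343). For both, every *ubp12/13* library was above every other library. *A/N-InvB* overlaps *LAP5* on the opposite strand by 84 bp, and *LAP5* averaged 0.101 CPM in *ubp12/13* and 0.296 CPM in wt.

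Transporters of amino acids rose as well. *AT2G41190*, annotated as a transmembrane amino acid transporter, averaged 12.1 ± 1.90 CPM in *ubp12/13* and 3.44 ± 1.08 CPM in wt (SD, n = 3, log2FC 1.82, edgeR adjusted p = 0.000676), and *CAT5*, a cationic amino acid transporter, 6.72 ± 0.634 CPM in *ubp12/13* and 2.37 ± 0.327 CPM in wt (log2FC 1.49, edgeR adjusted p = 0.000539). They were 2 of 6 tested transporter genes, beside rises in 5.94% of all tested genes. Another member, the vacuolar iron transporter-like gene *AT1G76800*, fell (log2FC −1.48, adjusted p = 0.0111), a call lost when counts were thinned to the smallest library (adjusted p = 0.0674). *ROXY1*, a glutaredoxin of petal development, had 1.97, 1.95 and 2.27 CPM in *ubp12/13* and 0.436, 0.374 and 0.779 CPM in wt (log2FC 1.98, adjusted p = 0.00273). The whole of *ROXY1* overlaps *ACR6* on the opposite strand (798 bp), which averaged 1.98 CPM in *ubp12/13* and 2.11 CPM in wt, and whether counting used strand is not stated in the sources used here.

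The remaining rises were smaller or less stable. The peroxidase gene *AT3G17070* had 20.3, 22.5 and 21.3 CPM in *ubp12/13*, 16.5, 16.4 and 15.1 in *ubp12*, 9.82, 8.33 and 12.4 in those labelled *ubp13*, and 8.94, 7.24 and 8.57 CPM in wt (log2FC 1.36, adjusted p = 0.00012). It was the only one of the 15 whose *ubp12* change also passed an adjusted p of 0.05 (log2FC 0.96, adjusted p = 0.00711), below the fold minimum. The narrow peak of *AT3G17070* lies past the first 1 kb of the gene. *GPAT3* (log2FC 1.26, adjusted p = 0.013) lost its call without wt replicate 3 (adjusted p = 0.0565). *GH3.3*, which joins auxin to amino acids, rose by a log2FC of 1.15 (adjusted p = 0.0262) as 1 of 4 tested auxin genes, with a call lost without *ubp12/13* replicate 1 or 3 and without wt replicate 2 or 3 (adjusted p = 0.0651 to 0.0827). The Dof zinc finger gene *AT5G66940* had 0.832, 0.946 and 1.06 CPM in *ubp12/13* and 0.109, 0.499 and 0.312 CPM in wt (log2FC 1.63, adjusted p = 0.0347), close to the filter (log2FC 2.22 without wt replicate 2). Its call was lost with DESeq2 (adjusted p = 0.119), with a replicate block (0.0666), with all libraries in a common fit (0.0637) and when *ubp12/13* replicate 1 (0.0653), wt replicate 1 (0.108) or wt replicate 3 (0.0767) was left out, and it was not tested with thinned counts or without *ubp12/13* replicate 2 or 3.

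The largest falls were those of *AT3G16670*, *DCF* and *AT5G38710*. *AT3G16670*, of the pollen Ole e 1 and extensin family, had 0.151, 0.532 and 0.303 CPM in *ubp12/13*, 5.34, 20.1 and 10.4 in *ubp12*, 24.4, 28.4 and 11.8 in those labelled *ubp13*, and 36.9, 38.2 and 18.7 CPM in wt. The double mutant was far below every other library (log2FC −6.47 ± 0.41, adjusted p = 4.05e-05). *DCF*, an acyltransferase that adds ferulate to cutin, had 2.04, 1.72 and 1.89 CPM in *ubp12/13*, 20.6, 22.3 and 17.9 in *ubp12*, 22.1, 27.1 and 30.0 in those labelled *ubp13*, and 28.2, 26.3 and 21.2 CPM in wt (log2FC −3.76 ± 0.16, adjusted p = 5.83e-06).

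*XTH17*, a xyloglucan endotransglucosylase of the growing wall, had 0.529, 0.296 and 0.681 CPM in *ubp12/13*, 4.23, 7.10 and 4.82 in *ubp12*, 2.31, 4.38 and 8.76 in those labelled *ubp13*, and 2.51, 3.62 and 2.34 CPM in wt (log2FC −2.52 ± 0.36, adjusted p = 0.0012). All *ubp12/13* libraries were below all others, and the *ubp12* libraries were above wt. *XTH17* has a close copy, *XTH18*, but the gene bodies share 0 words of 50 bases. With *AT3G16670* and the chitinase *ChiC* it made 3 falls among 6 tested cell wall genes, beside the rises of *CSLA01* and *AT3G17070*. Of all tested genes, 4.02% fell. *ChiC* came into the cell wall family by its glycosyl hydrolase product, and is counted among the defence genes as well.

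*AT5G38710*, a proline dehydrogenase-like gene annotated as a methylenetetrahydrofolate reductase family protein, had 0.454, 0.296 and 0.151 CPM in *ubp12/13*, 1.78, 0.931 and 1.66 in *ubp12*, 1.54, 2.61 and 2.24 in those labelled *ubp13*, and 3.82, 2.87 and 3.74 CPM in wt. Both single mutants lay between the double mutant and wt, and no library of any mutant reached the lowest wt value (log2FC −3.49 ± 0.35 in *ubp12/13*, adjusted p = 0.000247). *AT3G28770*, a putative transmembrane protein, had 2.42, 2.54 and 2.04 CPM in *ubp12/13* and 6.54, 11.1 and 14.6 CPM in wt (log2FC −2.18, adjusted p = 0.000944), and *LSH10*, of a family of light-dependent short hypocotyls-like proteins, had 1.06, 1.24 and 0.757 CPM in *ubp12/13* and 3.27, 3.495 and 2.65 CPM in wt (log2FC −1.61, adjusted p = 0.00235).

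Of 3 tested defence genes, *ChiC* (log2FC −1.14, adjusted p = 0.0153) and the thaumatin gene *AT1G73620* (log2FC −1.13, adjusted p = 0.0197) fell, beside 4.02% of all tested genes. With library totals both went under the fold minimum (log2FC −0.99 and −0.97). The call of *ChiC* was lost with thinned counts (adjusted p = 0.17) and without *ubp12/13* replicate 1 or wt replicate 2 (0.0569 and 0.0597), and that of *AT1G73620* without *ubp12/13* replicate 1 or wt replicate 1 (0.065 and 0.0767). The third, the defensin-like *AT3G05730*, had 46.1, 72.3 and 52.5 CPM in *ubp12/13* and 116, 106 and 102 CPM in wt, a difference that passed the test but not the fold minimum (log2FC −0.93, adjusted p = 0.00268). *CYP90D1*, a brassinosteroid-synthesising P450, averaged 5.64 CPM in *ubp12/13* and 12.4 CPM in wt (log2FC −1.13, adjusted p = 0.0049), and was 1 of 3 tested P450 genes. It went under the fold minimum, still with an adjusted p under 0.05, without *ubp12/13* replicate 1 (log2FC −0.99) or wt replicate 2 (−0.93).

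*MLP43* had 56.1, 55.1 and 55.9 CPM in *ubp12/13* and 90.4, 113 and 138 CPM in wt (log2FC −1.03, adjusted p = 0.00108, and −0.87 without wt replicate 3). The glutaredoxin-like *AT3G62950* (log2FC −1.08, adjusted p = 0.000485), *AT3G13175* (−1.15, 0.0103) and *AT4G35730* (−1.0002, 0.00692) were also just past the minimum. *AT4G35730* went under it with DESeq2, with RLE size factors, with a replicate block, without *ubp12/13* replicate 2, wt replicate 1 or wt replicate 2, and with library totals, thinned counts, no filter or organelle genes kept. *AT3G13175* lost its call with thinned counts (log2FC −0.68, adjusted p = 0.136), and went under the minimum with library totals (−0.997) and without wt replicate 3 (−0.92). In all 30 called genes the *ubp12/13* and wt libraries did not overlap, which among the 107 tested genes was so for 31 above and 24 below wt, beside 24.1% and 22.6% of all tested genes.

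**Figure D4:**
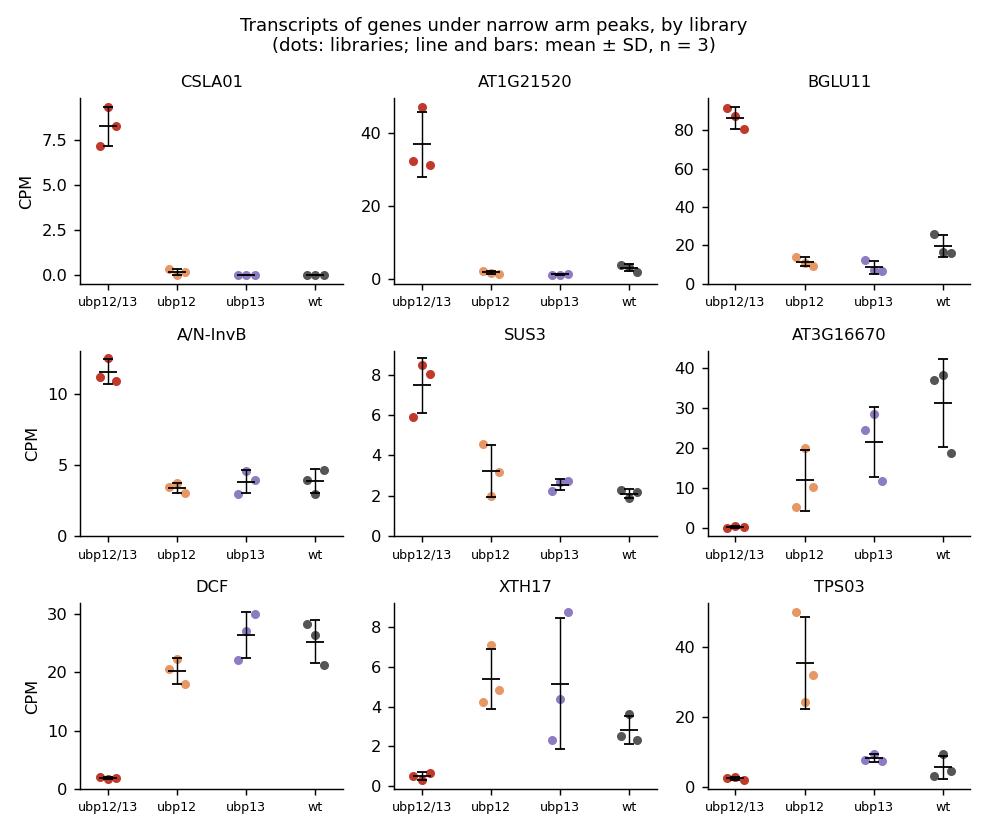
CPM (vertical axes) of 9 genes under narrow arm peaks in every library of *ubp12/13*, *ubp12*, *ubp13* and wt, with the mean and SD of 3 libraries as a line and bars. *CSLA01* stands at 7.19 to 9.35 CPM in *ubp12/13* and 0 CPM in wt, *DCF* at 1.72 to 2.04 CPM in *ubp12/13* and 21.2 to 28.2 CPM in wt, and *TPS03* is highest in *ubp12* (24.2 to 49.99 CPM).

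Neither the kinase family nor the F-box, RING and U-box family gave a call above the filter. Of the 18 kinase genes 3 were tested, of which the phosphofructokinase *AT1G76550* had a log2FC of −0.48 (adjusted p = 0.00987) and the receptor-like kinase *AT5G43020* of −0.38 (adjusted p = 0.0907). Of the 15 F-box, RING and U-box genes 4 were tested, with the smallest adjusted p at *AT5G48550* (log2FC 1.15, adjusted p = 0.0617). Among the transcription factor families the Dof gene *AT5G66940*, described above, was the only call, as 1 of 4 tested zinc finger genes. The bHLH gene *AT2G20100* had a log2FC of −0.63 (adjusted p = 0.0407), the zinc finger gene *NTT* of 0.71 (adjusted p = 0.0657), *WRKY29* of 0.47 (adjusted p = 0.171) and *NAC076* of −0.37 (adjusted p = 0.445). The ethylene and jasmonate gene *CEJ1* had 4.01, 1.77 and 7.64 CPM in *ubp12/13* and 1.42, 1.62 and 0.156 CPM in wt, without overlap but with a wide spread (log2FC 1.94 ± 0.67, adjusted p = 0.0563). The auxin carrier *PIN6* (log2FC 0.27) and the lipid transfer protein gene *LTP* (0.28) had adjusted p of 0.286 and 0.0788.

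The single mutants showed few calls under narrow peaks. In *ubp12*, 1 of 104 tested covered genes rose (0.469% of all 17712 tested genes did) and 0 fell by edgeR and by DESeq2 (0.215% of all). At an unadjusted p under 0.05, 13 lay above wt and 11 below it, beside 8.19% and 6.98% of all tested genes, and the median log2FC was −0.04. In the libraries labelled *ubp13*, edgeR called 0 of 99 tested covered genes in either direction (0.0227% of all tested genes rose and 0.00568% fell), with 5 above and 6 below wt at an unadjusted p under 0.05, beside 3.42% and 2.83% of all. DESeq2 called 0 rises and 1 fall there, of *BGLU11*. Since all 3 mutants were set against the same wt libraries, their log2FC values share that error.

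The 1 gene called in *ubp12* was *TPS03*, an enzyme of the terpene synthase family that makes ocimene and farnesene. It had 2.57, 2.72 and 1.82 CPM in *ubp12/13*, 49.99, 24.2 and 31.96 in *ubp12*, 7.69, 9.43 and 7.43 in those labelled *ubp13*, and 3.05, 9.24 and 4.36 CPM in wt. The *ubp12* libraries were above all others (log2FC 2.68 ± 0.36, adjusted p = 0.00515), and those of *ubp12/13* just below the lowest of wt (log2FC −1.22, adjusted p = 0.0443). The fall in *ubp12/13* was lost when any *ubp12/13* library or wt replicate 2 or 3 was left out (adjusted p = 0.055 to 0.156, with a log2FC of −0.62 without wt replicate 2), with thinned counts (0.0633) and with library totals (0.0644). Without wt replicate 2 the log2FC in *ubp12* was 3.30. Its narrow peak lies past the first 1 kb, and the gene also lies under another increase peak.

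Of the 15 genes that rose in *ubp12/13*, 11 were tested in *ubp12*, with log2FC from −0.77 to 1.69 and 7 above 0, and 9 in the libraries labelled *ubp13*, from −1.31 to 0.75 and 6 above 0. Of the 15 that fell, all were tested in both, with 10 below 0 in *ubp12* (−1.39 to 2.68) and 8 below 0 in those labelled *ubp13* (−0.76 to 0.83). Whether the double mutant departs from the sum of the single mutants was tested over all 12 libraries. Of 112 covered genes tested, 5 lay above that sum (3.23% of all 18212 tested genes) and 8 below it (3.14%), among them *AT1G21520* (5.62 on the log2 scale, adjusted p = 4.64e-06), *BGLU11* (4.09, adjusted p = 9.56e-06), *A/N-InvB* (1.75, adjusted p = 0.00106), *AT3G16670* (−4.54, adjusted p = 0.00309), *DCF* (−3.50, adjusted p = 1.24e-06), *XTH17* (−4.28, adjusted p = 0.000957) and *TPS03* (−4.46, adjusted p = 9.89e-05). Directions against the sum carry the doubt about the libraries labelled *ubp13*.

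**Figure D5:**
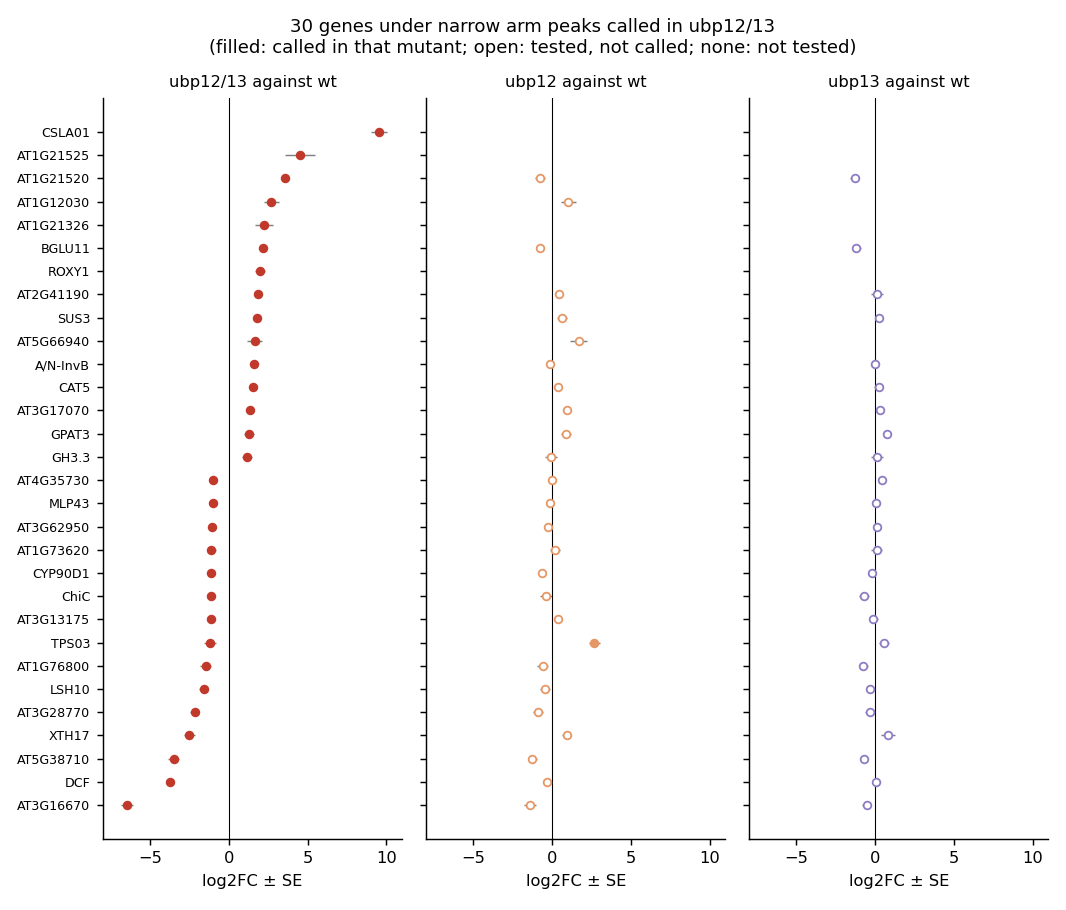
Log2FC against wt with its standard error (horizontal axes) of the 30 genes under narrow arm peaks called in *ubp12/13*, in *ubp12/13*, *ubp12* and *ubp13* from left to right, with filled points for calls and no point where a gene was not tested. *TPS03* (2.68) is the only filled point outside *ubp12/13*, and the value drawn for *CSLA01* in *ubp12/13* is a fitted one, since all its wt libraries are at 0.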

How the data were processed

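RNA-seq counts and H2Aub1 peaks were analysed as deposited. The authors trimmed reads with cutadapt 1.18, mapped them to TAIR10 with TopHat2 and counted reads per gene with HTSeq 0.11.1, and the deposited values are raw counts without normalization, 1 library per replicate. ChIP reads were trimmed with Trimmomatic 0.38 and mapped with Bowtie2 2.2.9, peaks were called with MACS2 against H3, compared with MAnorm, and merged by the authors where 2 replicates per genotype overlapped. The deposited score column is 1 throughout, so that no strength, depth or p-value comes with a peak. Depth is given in the report, and intervals cover counting error only.

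Genes came from the TAIR10.1 (RefSeq) annotation, whose nuclear coordinates are those of TAIR10 (32835 of 33323 nuclear IDs matched). A gene was covered where a peak overlapped its body by at least 1 bp, and 32 annotated genes without counts were not analysed here. Reads on 279 organelle genes were left out. Each mutant was compared with wt over the nuclear genes that exceeded 1 CPM in 2 or more of their 6 libraries, with edgeR 4.0.16 in R 4.3.3 (TMM, quasi-likelihood test, Benjamini-Hochberg adjustment over all tested genes). Genes were called at an adjusted p below 0.05 where log2FC was 1 or more in size. A group with at most 3 counts per library was treated as at the floor. The departure from the sum of the single mutants was tested over 12 libraries. Replicates are labelled as biological, so that p-values measure the spread between these samples.

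The genes named are *UBP12*, *UBP13*, the 12 largest rises and 8 largest falls among calls without overlap, the covered genes called in single mutants (at most 6 a direction), up to 2 genes per family with the smallest adjusted p, and the genes of the narrowest and widest narrow peaks. The other called genes were named after their values were seen. Families were set by 26 patterns in the annotated product. The members, lists and tests were chosen with earlier results of these data known. Alternatives were DESeq2 1.42.0, RLE factors or library totals, other filters, thinned counts, a replicate block, a common fit, each library left out, and other overlap and width rules. The fits were tested on simulated data. Python 3.11.15 with pandas 2.3.3, NumPy 2.4.6, SciPy 1.17.1 and Matplotlib was used for peaks and summaries. Peaks of H2Aub1 decrease and other ChIP data were not used here.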

Additional observations from a re-analysis of the deposited data

Results flagged for a closer look

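For 13 of 112 tested genes under narrow peaks, the change in *ubp12/13* differed from the sum of the changes in *ubp12* and in the libraries labelled *ubp13* (edgeR quasi-likelihood test of the difference over 12 libraries, Benjamini-Hochberg adjusted p under 0.05, departure of at least 1 on the log2 scale). Of the 112, 4.46% lay above the sum and 7.14% below it, beside 3.23% and 3.14% of all 18212 tested genes. Above the sum lay *AT1G21520* (5.62), *BGLU11* (4.09), *A/N-InvB* (1.75), *MEE23*, a berberine bridge enzyme-like gene (1.25), and *MEB1*, a vacuolar iron transporter-like gene (1.24). Below the sum lay *XTH17* (−4.28), *AT3G16670* (−4.54), *TPS03* (−4.46), *DCF* (−3.50), *AT1G06980* (−1.71), *AT4G35730* (−1.46), *AT3G13175* (−1.41) and the nucleotide-sugar transporter gene *AT1G57980* (−1.02). The calls of *MEB1*, *MEE23*, *AT1G57980* and *AT3G13175* were each lost when a single library was left out, and the other 9 were kept in all 15 other fits.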

How the results depend on the processing

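Of the counts, medians and shares recomputed under the alternatives, 182 values stayed near those reported and 31 moved, and no direction of a called gene reversed. Under peaks of less than 800 bp, 135 genes were covered and 40 tested in *ubp12/13*. Of these 40, 3 rose and 6 fell (median log2FC 0.0144), beside 5.94% and 4.02% of all tested genes. In *ubp12*, 0 genes under these peaks rose. The centre lay in a gene body in 81.6% of these peaks, and 67.1% touched the first 1 kb of a protein-coding gene. Their G-box share was 5.70% (interval 3.03 to 10.5%). With 2 kb upstream added to gene bodies, 23 genes rose in *ubp12/13* (median log2FC −0.0105) and 1 fell in *ubp12*. With library totals only, 7 fell in *ubp12/13* and the median log2FC was 0.217. That median was 0.039 with all libraries in a common fit, 0.112 without a filter on low counts, 0.0388 with an overlap of at least 200 bp, 0.0473 without genes of other increase peaks, and −0.02 to 0.058 when a library was left out, so that it had no stable sign. In *ubp12*, 2 genes rose with thinned counts, 3 rose and 2 fell without a filter on low counts, 2 rose without a fold minimum, 0 rose in the first 1 kb only or without genes of other increase peaks (where *TPS03* drops out), and 1 to 3 rose and 0 to 1 fell when a library was left out. DESeq2 called 1 fall in the libraries labelled *ubp13*.

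With a library left out, 12 to 16 genes rose and 11 to 16 fell in *ubp12/13*, 0 were called in the libraries labelled *ubp13*, and 10 to 17 departed from the sum of the single mutants. With replicate number as a block, 15 rose and 14 fell in *ubp12/13* and 16 departed from the sum of the single mutants, against 13 without the block. Same-numbered libraries of a mutant and wt were hardly alike in their deviations from the group means (r from −0.168 to 0.106 across genes). Those of different mutants all had a positive r, from 0.0141 to 0.293. The numbers were not taken as pairs, because not every pair exceeded 0.1. Whether the mutants share a replicate structure was not tested. A filter on mean CPM, chosen after seeing the data, gave 14 rises and 15 falls. Depth limits the 224 genes under the filter, of which 134 were tested without it and 2 called.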
